A study of Mus musculus with 24 samples.

Results

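Pitx1 and Isl1 encode transcription factors that act in the hindlimb bud and are known as genes of hindlimb identity and outgrowth. Their chromatin was described here in forelimb buds and in NIH3T3 cells, an established mouse fibroblast line. The members were all peaks of the 7 deposited ChIP-seq peak lists that overlapped the mm10 gene body of Pitx1 or Isl1 or the 50 kb on either side of it. This rule took 37 of 368383 peaks, 9 at Pitx1 and 28 at Isl1.

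The limb tissue was E10.5 forelimb buds of 32 to 35 somites from Swiss Webster mice, with about 400000 cells in each immunoprecipitation. Shh-/- buds carried a null allele of Sonic hedgehog. The buds labelled wild type (WT) came, by the study's methods, from wild-type and heterozygous littermates together, matched by somite number and pooled over several embryos. NIH3T3 cells (1000000 cells in each immunoprecipitation) were kept for 48 h with 400 nM purmorphamine, an activator of the Hedgehog pathway protein Smoothened, or with its solvent DMSO. The labels list LIF for the cells of both treatments. H3K27ac was measured in all 4 conditions, H3K4me2 in WT and Shh-/- limb, and H3K27me3 in Shh-/- limb. H3K27me3 of WT limb and of NIH3T3 cells, and any chromatin of hindlimb buds, were not analysed here. Of the 24 libraries, 14 were immunoprecipitations, 2 for each condition and mark, and 10 were inputs. Each list was called on both replicates entered together, so a peak has 1 value per condition and no spread between replicates, and no difference between lists described here was tested. The lists do not give the sequencing depth behind them.

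H3K27me3 is the mark left by Polycomb repressive complex PRC2 and covers developmental genes that are switched off. H3K27ac is found at active promoters and enhancers. H3K4me2 is found at promoters and enhancers, acetylated or not, and promoters that carry H3K4 methylation together with H3K27me3 are often called bivalent. Pitx1 is a paired-class homeodomain factor of the bicoid type that drives hindlimb patterning and acts upstream of the T-box gene Tbx4. Isl1 is a LIM-homeodomain factor needed to start hindlimb outgrowth, and it is also a classic factor of motor neurons, heart progenitors and pancreatic islets. In forelimb the corresponding initiating gene is Tbx5.

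Pitx1 (ENSMUSG00000021506) lies on the minus strand of chromosome 13, with its gene body at chr13:55825051-55836192 and its main start, that of the transcript in the basic annotation, at base 55831425. The full annotation has a further, upstream start at base 55836192. Isl1 (ENSMUSG00000042258) also lies on the minus strand of chromosome 13, at chr13:116298281-116309689, with its main start at base 116309689. The basic annotation has a further Isl1 start, inside the gene, at base 116309422. Distances are taken from the main start of each gene. The windows around the genes held 2 further protein-coding genes, Pcbd2 and Catsper3, both downstream of Pitx1, and none at Isl1.

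Of the 37 peaks, 23 were H3K27me3 peaks, 10 were H3K4me2 peaks and 4 were H3K27ac peaks. By list there were 2 peaks of WT H3K27ac, 2 of Shh-/- H3K27ac, 6 of WT H3K4me2, 4 of Shh-/- H3K4me2 and 23 of Shh-/- H3K27me3. The NIH3T3 lists, the longest of the 7 with 91023 peaks after DMSO and 87809 after purmorphamine, held none at either gene. All 4 H3K27ac peaks lay at the outer edges of the Pitx1 window, and Isl1 had none in any list.

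A few stretches of genomic sequence show the base composition on which these marks lay. All are from the mm10 minus strand, the coding strand of both genes, written 5′ to 3′, with each CpG dinucleotide in capitals. The first is the 250 bases that the RefSeq promoter table (build GRCm38.p6) places before the Isl1 start, at chr13:116309689-116309938, all of which lay under H3K4me2 peaks of both genotypes and none of which lay under an H3K27me3 peak. The second is the 300 bases around the strongest position of the widest H3K27me3 peak of Isl1, at chr13:116302776-116303075, of which 30 bases are coding exon and the rest intron. The third is 300 bases of an intron of Pitx1, at chr13:55830451-55830750, which lay under both the H3K4me2 peak and the H3K27me3 peak of Shh-/- limb.
Isl1 promoter: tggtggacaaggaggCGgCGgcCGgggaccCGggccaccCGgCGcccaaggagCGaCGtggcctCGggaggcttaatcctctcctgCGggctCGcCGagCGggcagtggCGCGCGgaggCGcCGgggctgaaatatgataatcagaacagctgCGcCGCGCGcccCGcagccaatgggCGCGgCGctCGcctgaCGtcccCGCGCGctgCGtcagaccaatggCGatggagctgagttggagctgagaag
Isl1 H3K27me3 peak: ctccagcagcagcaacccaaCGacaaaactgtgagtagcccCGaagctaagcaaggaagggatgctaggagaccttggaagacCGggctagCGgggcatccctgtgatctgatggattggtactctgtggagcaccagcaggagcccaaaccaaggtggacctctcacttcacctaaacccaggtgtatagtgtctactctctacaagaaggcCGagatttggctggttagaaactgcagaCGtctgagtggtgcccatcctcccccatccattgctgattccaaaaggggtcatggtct
Pitx1 H3K4me2 and H3K27me3: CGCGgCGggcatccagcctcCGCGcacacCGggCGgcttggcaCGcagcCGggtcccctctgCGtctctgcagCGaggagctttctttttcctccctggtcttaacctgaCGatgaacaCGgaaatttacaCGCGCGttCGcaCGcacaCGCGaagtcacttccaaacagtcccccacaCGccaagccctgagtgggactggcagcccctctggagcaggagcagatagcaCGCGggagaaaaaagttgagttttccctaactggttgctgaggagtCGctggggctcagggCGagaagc

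The stretches differed in their capitals. The Isl1 promoter held 33 CpG dinucleotides in 250 bases at 71.2% GC, the Pitx1 intron held 25 in 300 bases at 61.7% GC, and the H3K27me3 peak inside Isl1 held 6 in 300 bases at 54.0% GC. Of 32851 promoter entries of the same length in that table, 4.03% had at least as many CpG dinucleotides as that of Isl1. Of the members, 1 of 2 genes had an entry, Isl1.

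Pitx1 was covered by a single wide H3K27me3 domain. In Shh-/- forelimb buds 1 peak ran over chr13:55824150-55838549, a width of 14400 bp, and held 100% of the gene body, 901 bp beyond its 3′ end and 2357 bp beyond its 5′ end. It ranked 249 of 20846 by the authors' score, with a highest log2 ratio of ChIP to input of 4.80 and a deposited FDR of 0. The strongest position, base 55836225, lay next to the upstream start and 4800 bp upstream of the main start. Of the 20830 H3K27me3 peaks on the main chromosomes, 14 were as wide or wider (0.0672%, the Pitx1 peak included). This was the only H3K27me3 peak in the Pitx1 window, and its outer edges lay 901 bp and 2357 bp from the gene, so Catsper3 and Pcbd2 were outside the domain.

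Inside the Pitx1 domain, H3K4me2 was found at the main start in both genotypes. In WT limb there were 3 narrow peaks. The best ranked of these, at chr13:55830800-55831199 over the first exon of the basic transcript, had a log2 ratio of 3.52 and rank 11396 of 36613. A 150 bp peak at chr13:55831400-55831549, which held the start itself, had a log2 ratio of 2.31 and rank 31753, and a 100 bp peak at chr13:55830100-55830199 in an intron had a log2 ratio of 2.11, rank 35927 and an FDR of 0.102. Both of these narrow peaks were near the end of the list. In Shh-/- limb there was 1 peak, at chr13:55830450-55831299, with a log2 ratio of 3.90 and rank 6395 of 38497, whose edge lay 126 bp from the start. By the rule that a peak is shared if it overlaps the other genotype's list by at least 1 bp, 2 of the 3 WT peaks were not shared, against a background of 25.7% of all WT H3K4me2 peaks, and 0 of 1 in Shh-/- limb, against 22.5%. The 2 unshared peaks lay within 500 bp of the Shh-/- peak, and no unshared peak was left when such a gap counted as shared. The log2 ratio of the shared site was 0.39 higher in Shh-/- than in WT limb, a difference between 2 lists with no replicate check.

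H3K27ac was far from Pitx1 in every condition. In WT limb the peaks were at chr13:55774600-55775149, with a log2 ratio of 3.26 and rank 20740 of 49679, and at chr13:55775400-55775649, with a log2 ratio of 3.19 and rank 22458, both within the last part of Pcbd2, a gene for a metabolic enzyme that is also a transcriptional cofactor. In Shh-/- limb one peak overlapped the first of these, at chr13:55774850-55775249, with a log2 ratio of 3.81 and rank 9109 of 43916. The other, at chr13:55881400-55881499, upstream of Pitx1 in an intron of the antisense transcript Gm47071, had a log2 ratio of 2.76 and rank 29647. Hence the nearest acetylation to the Pitx1 start was 55.8 kb away in WT and 50.0 kb away in Shh-/- limb, and at Catsper3, a sperm ion channel gene that lies between Pcbd2 and Pitx1, no list had a peak over a start. Of the 2 peaks in each genotype, 1 was not shared, against backgrounds of 48.5% of WT and 38.4% of Shh-/- H3K27ac peaks. The WT peak at chr13:55775400-55775649 lay within 500 bp of its neighbour in Shh-/- limb and counted as shared when such a gap was allowed. In NIH3T3 cells the nearest H3K27ac peaks were those over the Pcbd2 promoter, 103 kb from the Pitx1 start, at chr13:55727000-55727999 with a log2 ratio of 4.46 after DMSO and at chr13:55727000-55728049 with a log2 ratio of 4.19 after purmorphamine.

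**Figure D1:**
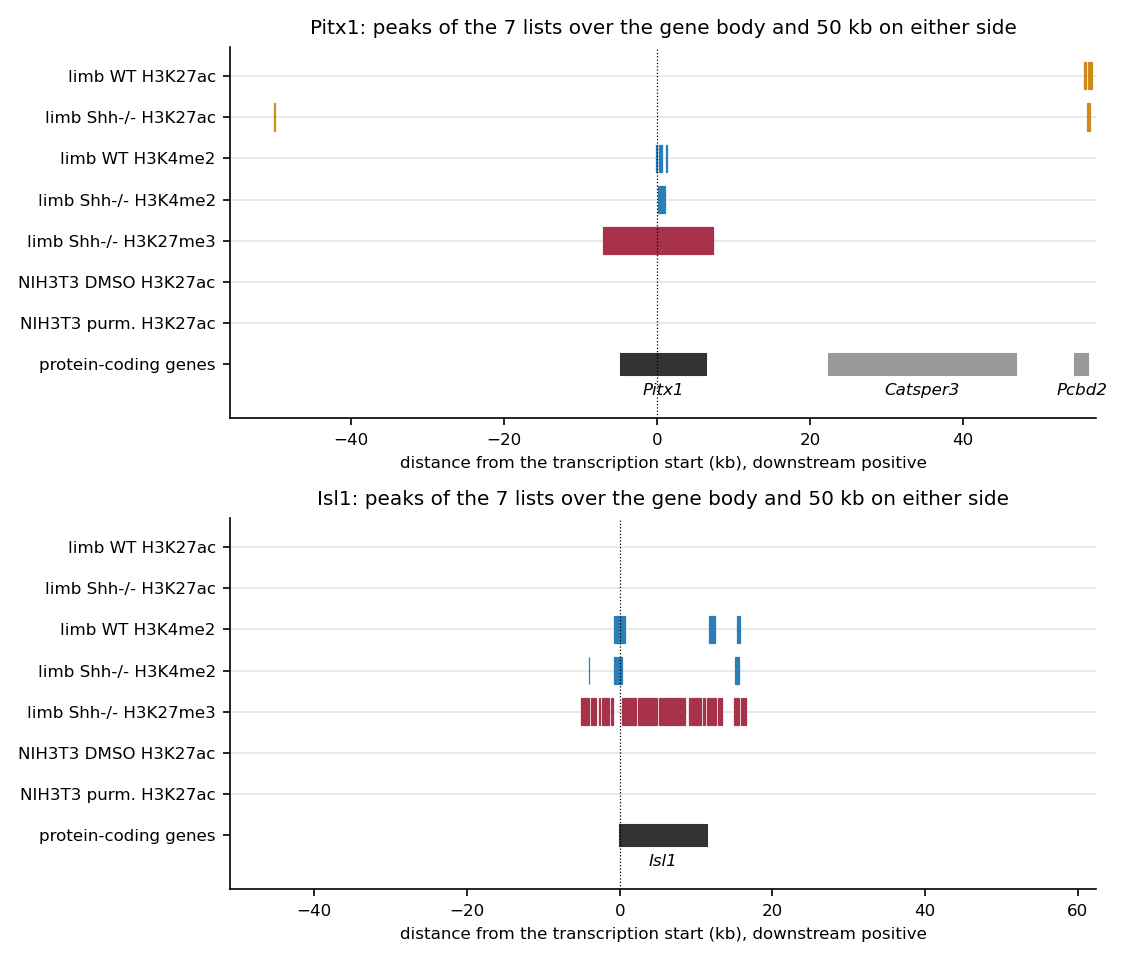
Peaks of the 7 lists at Pitx1 (top) and Isl1 (bottom) against distance from the transcription start in kb, with downstream to the right. Each bar is 1 peak drawn to scale along the x axis, dark and grey boxes are protein-coding genes. Pitx1 lies under 1 H3K27me3 peak of 14400 bp, Isl1 under a row of 22 peaks with a gap at its start, and the NIH3T3 rows are empty at both genes.

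At Isl1 the H3K27me3 domain was as long but broken into pieces. In Shh-/- limb 22 peaks lay between bases 116293200 and 116314749, a span of 21.6 kb of which 14600 bp (67.7%) were under a peak. They held 80.2% of the gene body and reached 5.08 kb beyond its 3′ end and 5.06 kb beyond its 5′ end. Their log2 ratios ran from 2.05 to 3.82, all below the 4.80 of the Pitx1 peak. Of the 22, 15 had an FDR under 0.05, where 47.2% of the whole H3K27me3 list did. Between them were 21 gaps with a median of 200 bp and a largest of 1650 bp, at chr13:116294650-116296299 downstream of the gene, where no H3K4me2 peak lay.

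The widest H3K27me3 peak of Isl1 lay in the middle of the gene. It ran over chr13:116301150-116304599, 3450 bp, with the highest log2 ratio (3.82) and the best rank (1683) of the 22, and 2.45% of all H3K27me3 peaks were as wide or wider. Another 4 peaks were at least 1 kb wide. A peak of 1600 bp at chr13:116307550-116309149 near the start had a log2 ratio of 3.23, and one of 1500 bp at chr13:116305100-116306599 had 3.40. A peak of 1200 bp at chr13:116299100-116300299, over the end of the coding sequence and the 3′ UTR, had 3.57, and one of 1000 bp at chr13:116313750-116314749, upstream of the gene, had 3.62. These 5 peaks all had an FDR of 0. When peaks within 1 kb of each other were merged, the piece over most of Isl1 was 13050 bp wide, and 0.812% of 14779 merged domains were as wide or wider, against 0.758% for Pitx1 with its 14400 bp.

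The start of Isl1 lay in a gap of the H3K27me3 domain, and H3K4me2 lay in that gap. The gap, chr13:116309350-116310599, was 1250 bp wide and reached 910 bp upstream and 339 bp downstream of the main start. The further start at base 116309422 lay in the gap too, nearer to its downstream edge. In WT limb an H3K4me2 peak at chr13:116309050-116310449 had a log2 ratio of 5.19 and rank 87 of 36613, and it held 88.0% of the gap. In Shh-/- limb the peak at chr13:116309400-116310449 had a log2 ratio of 4.24 and rank 2994 of 38497, and it held 84.0% of the gap. An H3K27me3 peak of only 100 bp (log2 ratio 2.05, rank 20783 of 20846, FDR 0.253) lay at its downstream edge. A start base free of H3K27me3 was the more frequent arrangement near the mark. Of 4819 starts of protein-coding genes with an H3K27me3 peak from 2 kb before to 1 kb after, 41.1% had the start base itself under the mark, and of the 2763 of these with Shh-/- H3K4me2 over the start base, 38.1% did. The main start of Pitx1 was one of those under the mark. The sheared chromatin came from many cells, so marks that overlap at Pitx1 may sit in the same or in different cells, and this was not tested.

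The Isl1 start peak ranked lower in Shh-/- limb, by an amount typical of the strongest WT peaks. Its log2 ratio was 0.95 lower in Shh-/- than in WT limb. The 366 best ranked peaks of the WT list (1%), chosen by WT rank alone, all overlapped a Shh-/- peak. They had a median difference of 0.95 as well, with 5% of them under 0.02 and 5% over 1.77. Of these peaks, 60.7% had a Shh-/- counterpart as low or lower in its list than that of Isl1. A choice by WT rank favours high WT values, so some drop in this set was built in, and an effect of genotype was not tested.

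Further H3K4me2 peaks flanked Isl1. Downstream of the gene, WT limb had a peak at chr13:116293900-116294299 (log2 ratio 3.15, rank 17081) and Shh-/- limb an overlapping one at chr13:116294000-116294549 (log2 ratio 3.90, rank 6478). Between this site and the gene, WT limb had a peak of 800 bp at chr13:116297200-116297999, with a log2 ratio of 3.48 and rank 12000, that had no counterpart in Shh-/- limb even with a gap of 500 bp allowed. The study compared H3K4me2 reads per library and reported nearly all peaks unchanged between the genotypes, and its result for this peak was not checked here. Shh-/- limb had a peak of 100 bp at chr13:116313650-116313749, upstream of the gene, with a log2 ratio of 2.28, rank 37565 and an FDR of 0.102, that had none in WT limb. Unshared peaks were thus 1 of 3 in each genotype, near the backgrounds of 25.7% and 22.5%, and the Shh-/- one was lost at an FDR under 0.05.

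Overlap of the marks was counted from either side. At Pitx1 the 1 H3K27me3 peak overlapped H3K4me2 of both genotypes. At Isl1, 1 of 22 H3K27me3 peaks overlapped a Shh-/- H3K4me2 peak and 5 of 22 a WT one, where 20.1% and 21.1% of all H3K27me3 peaks did. The Isl1 count depends on the rule, since 8 of 22 lay within 500 bp of a Shh-/- H3K4me2 peak, a rule for which the background was not computed. Seen from the other mark, all 6 WT H3K4me2 peaks of the members overlapped H3K27me3 by at least 1 bp, where 12.2% of the WT list did, although the H3K27me3 came from Shh-/- buds, and 2 of 4 Shh-/- ones did, where 11.4% of that list did. Of the 6 WT peaks, 3 lay in the 1 Pitx1 H3K27me3 peak and are not separate counts. The WT peak over the Isl1 start overlapped H3K27me3 only at its downstream edge. No H3K27me3 peak of either gene overlapped H3K27ac, as in most of the list, where 2.11% overlapped WT, 1.91% Shh-/-, 6.26% DMSO and 6.55% purmorphamine H3K27ac.

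**Figure D2:**
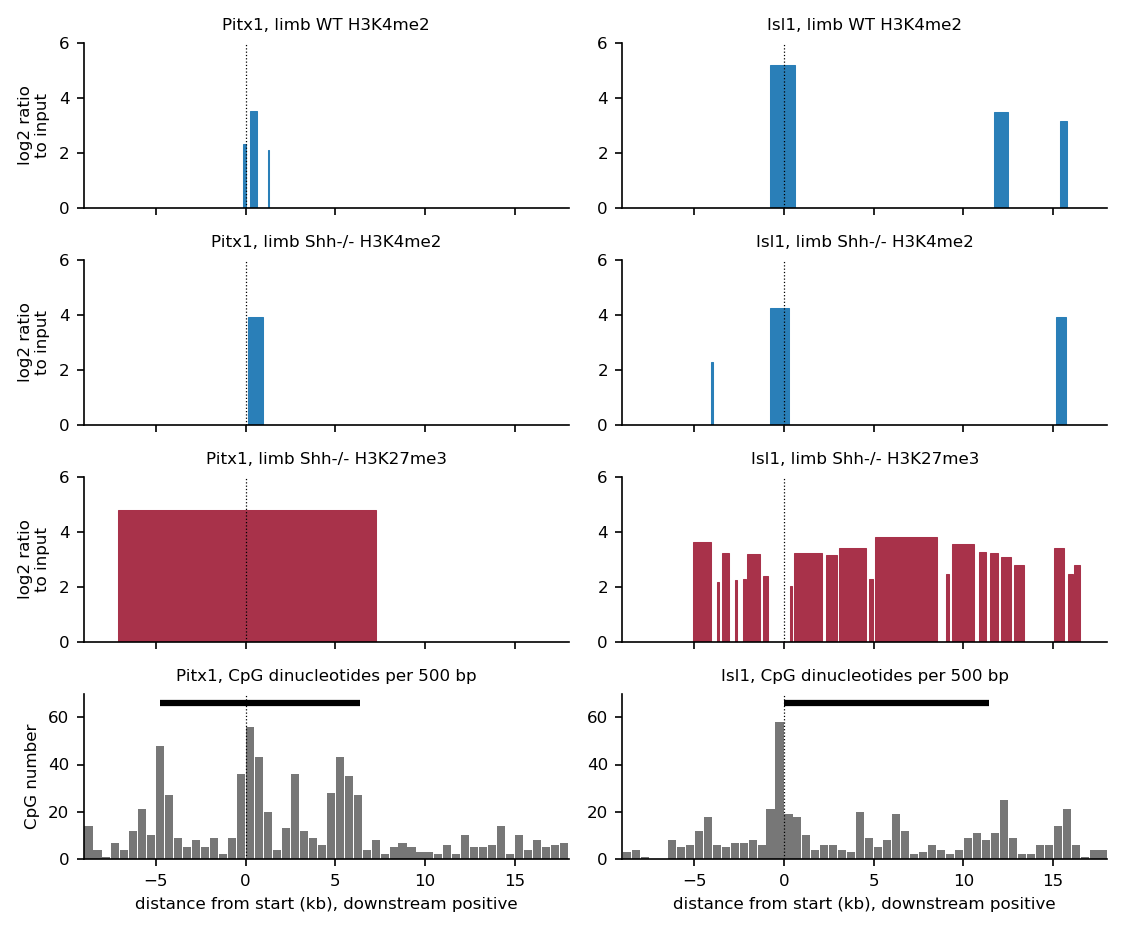
Highest log2 ratio of ChIP to input of each H3K4me2 and H3K27me3 peak (bar height) over its extent (bar width), and CpG dinucleotides per 500 bp, against distance in kb from the starts of Pitx1 (left) and Isl1 (right). The dotted line is the start and the black bar the gene body. At Pitx1 all H3K4me2 peaks lie inside the H3K27me3 peak, and at Isl1 the start peak of each genotype lies mainly in the gap, with the other H3K4me2 peaks farther out. The drawn bins with the most CpG dinucleotides, 56 at Pitx1 and 58 at Isl1, adjoin the starts.

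No H3K27ac peak was listed within 100 kb of the Isl1 start in any of the 4 conditions. The nearest lay downstream of the gene in all 4, between genes, at one site around chr13:116201200-116202199. There the peaks nearest to Isl1 had log2 ratios of 3.04 in WT limb, 2.91 in Shh-/- limb, 3.70 in NIH3T3 cells after DMSO and 3.41 after purmorphamine, at distances of 107 to 108 kb. A locus without H3K27ac was not rare. Of 21938 protein-coding genes, 22.1% had no limb H3K27ac peak in the same window and 21.9% had none in NIH3T3 cells.

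In a window around their starts both genes had the same combination of marks, although the start bases differed. The main start base of Pitx1 lay under H3K27me3 and not under Shh-/- H3K4me2, and at Isl1 it was the reverse. Between 2 kb upstream and 1 kb downstream of a start, both had H3K27me3 and both had H3K4me2 in WT and Shh-/- limb, and neither had H3K27ac in any of the 4 lists. H3K4me2 alone is common there, at 64.0% of protein-coding genes in WT limb, 63.5% in Shh-/- limb and 64.8% in either. H3K27ac was over a start of 45.9% in either limb genotype and of 54.5% in either NIH3T3 list (53.0% after DMSO, 53.1% after purmorphamine). Of all protein-coding genes, 13.3% had H3K27me3 over a start, 7.79% had it with no H3K27ac in limb or NIH3T3 lists, and 6.57% also had H3K4me2. The H3K27me3 peaks that reached this window had a highest log2 ratio of 4.80 at Pitx1 and 3.23 at Isl1. Log2 ratios given over a start are the highest of the whole peak, not of the window. The strongest positions, base 55836225 at Pitx1 and base 116308375 at Isl1, lay outside it. Among the 2924 genes with the mark over a start, whose median was 3.32, 6.12% had at least the value of Pitx1 and 53.0% at least that of Isl1.

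By total length under H3K27me3 the genes were alike. Over the gene body and 50 kb on either side, 14400 bp lay under the mark at Pitx1 and 14600 bp at Isl1, where the median gene had 100 bp and 53.1% of genes had at least 1 H3K27me3 peak. At least as much was found at 294 genes for Pitx1 (1.34%) and 288 for Isl1 (1.31%), neighbours of the same domain counted separately. Of those 294 loci, 25.9% had no H3K27ac in NIH3T3 cells, 24.8% had none in limb, and 11.9% had none in either, as at Isl1.

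**Figure D3:**
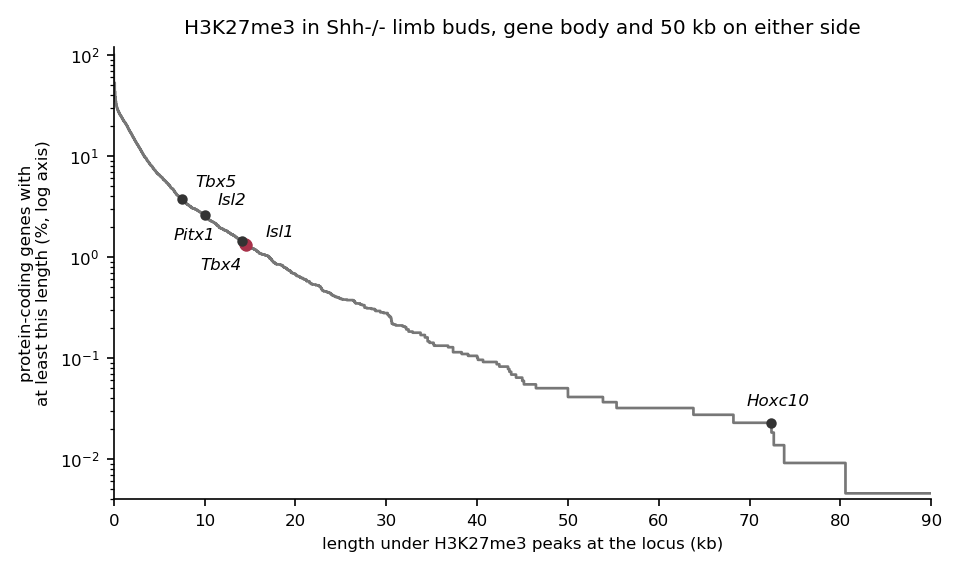
Share of protein-coding genes (percent, log axis) with at least a given length in kb under H3K27me3 peaks in Shh-/- limb buds, over the gene body and 50 kb on either side. Pitx1 and Isl1 (red) sit together at 1.34% and 1.31%, next to Tbx4, with Tbx5 and Isl2 at shorter lengths and Hoxc10 at a longer one.

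Other genes of hindlimb identity had H3K27me3 too, but not the same company. All 5 listed (Tbx4, Hoxc9, Hoxc10, Hoxc11, Hoxc12) had H3K27me3 over a start, with log2 ratios of 4.38 at Tbx4 and 4.49 to 4.86 at the Hoxc genes, which are expressed in posterior body and hindlimb. The 4 Hoxc genes had no peak of any other list there, H3K4me2 included. Tbx4, the T-box gene that promotes hindlimb outgrowth, had over a start H3K4me2 at 2.99 in WT and 2.64 in Shh-/- limb, both lower than at Pitx1 and Isl1, no WT H3K27ac, a Shh-/- H3K27ac peak of 3.04 and NIH3T3 H3K27ac of 2.81 after DMSO and 3.18 after purmorphamine. The limb H3K27ac call at Tbx4 was absent in a window of 500 bp on either side of a start. At Tbx4 14078 bp of the locus lay under H3K27me3, close to both members, and at Hoxc10, inside a gene cluster, 72404 bp did. Unlike the members, the loci of these genes held many H3K27ac peaks, except that of Hoxc12. At Tbx4 there were 19 in WT limb, 14 in Shh-/- limb, 7 after DMSO and 10 after purmorphamine. In the same order, Hoxc10 had 15, 14, 12 and 11, Hoxc9 had 19, 21, 15 and 14, and Hoxc11 had 8, 5, 9 and 9. Hoxc12 had only 1, 0, 1 and 3, close to the 2, 2, 0 and 0 of Pitx1.

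Genes of forelimb and shared limb programmes differed from the members in H3K27ac. All 13 listed had it over a start in both genotypes, where 43.8% of all genes had it in WT and 40.9% in Shh-/- limb. H3K27me3 was also there at 4 of 13, against 13.3% of all genes. These were Hand2 at 3.81, Twist1 at 2.67, Tbx5 at 2.56 and Prrx1 at 2.11, where Isl1 had 3.23. Hand2, Hoxc4, Hoxc5 and Hoxc6 had 23769 to 72657 bp of their wider loci under H3K27me3, more than either member, and the other listed genes had less. Tbx5, which starts forelimb outgrowth, had H3K27ac at 7.00 in WT and 7.04 in Shh-/- limb with H3K27me3 at 2.56, a lower value than at Pitx1 or Isl1, and no H3K27ac in NIH3T3 cells.

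The 2 listed paralogues of the members also carried H3K27me3 over a start. Pitx3, known for its part in lens and dopamine neurons, had H3K27me3 at 3.97, H3K4me2 at 4.23 and 3.63 in WT and Shh-/- limb, and no H3K27ac in any list, each over a start, though its wider locus held 6 H3K27ac peaks after DMSO and 2 after purmorphamine. Isl2, which acts with Isl1 in motor neurons, had H3K27me3 at 4.98 over a start and, unlike the members, H3K27ac there in NIH3T3 cells at 3.44 after DMSO and 4.03 after purmorphamine. Among 10 further LIM-homeodomain genes, all had H3K27me3 over a start and 5 had no H3K27ac over a start in any list. Of these 5, only Lhx5 also had none within 50 kb of its gene body, as at Isl1. Lhx2, Lhx9 and Lmx1b, which act in limb mesenchyme, had H3K27ac over a start in both genotypes. Ldb1 and Ldb2, which encode cofactors that LIM-homeodomain proteins bind, had no H3K27me3 over a start and had H3K27ac in both genotypes.

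**Figure D4:**
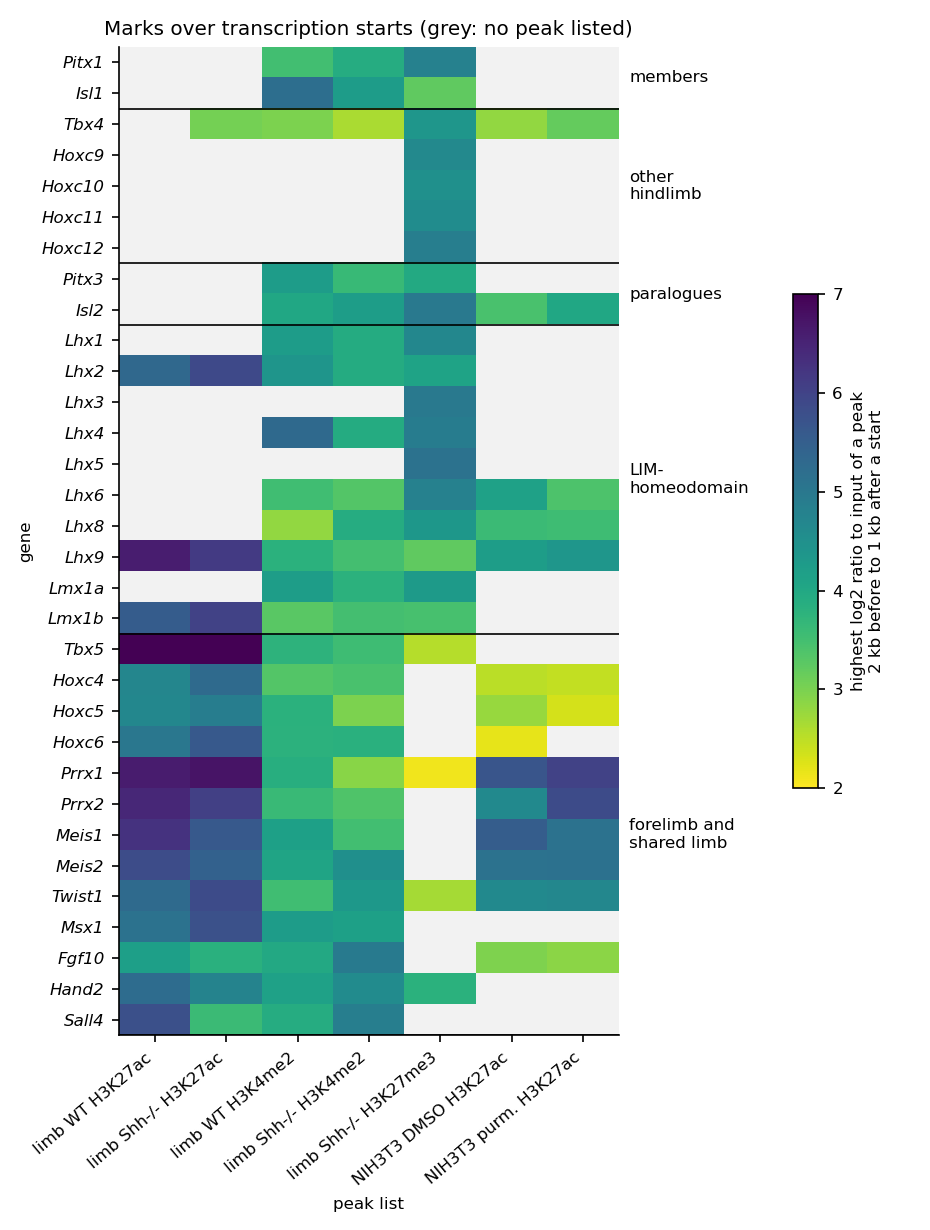
Highest log2 ratio of ChIP to input (colour) of any peak from 2 kb before to 1 kb after a start, for Pitx1, Isl1 and 4 gene lists (vertical axis) in the 7 peak lists (horizontal axis), grey where no peak is listed. Pitx1 and Isl1 have colour in the H3K4me2 and H3K27me3 columns and none in the H3K27ac columns, and the 13 forelimb and shared limb genes have H3K27ac in both limb columns.

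The labelled tissues were checked against markers of their cell types, which were shared in part, and against markers of other cells, among them motor neurons, which express Isl1. All 6 limb mesenchyme markers had H3K27ac over a start in both limb genotypes, and all 4 fibroblast markers had it in both NIH3T3 lists. The markers did not fully separate the tissues, since 4 of 6 limb mesenchyme markers also had H3K27ac over a start in NIH3T3 cells and 2 of 4 fibroblast markers (Col1a2 and Fn1) had it in limb. All 4 motor neuron markers (Mnx1, Olig2, Lhx3, Chat) had H3K27me3 over a start, at 4.46 to 5.21, and 0 of 4 had H3K27ac over a start in any list. Muscle precursor markers Pax3 and Lbx1 had H3K27me3 together with Shh-/- H3K27ac over a start, and no WT H3K27ac there. Their Shh-/- H3K27ac values, 2.41 and 2.67, were near 2.30, the lowest of that list. None of 3 surface ectoderm markers had a peak over a start in a limb list, and of 3 blood vessel markers, again over a start, Kdr had H3K4me2 and H3K27me3 and Cdh5 had WT H3K27ac. The part that these other cells play in the marks at Pitx1 and Isl1 was not tested.

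Between purmorphamine and DMSO there was nothing to compare inside the windows, since both lists had 0 peaks at both genes. Over all peaks, 41.1% of the DMSO and 36.5% of the purmorphamine list were not shared. An absent peak says only that H3K27ac did not reach the limit of the list, and without H3K27me3 of NIH3T3 cells the lists do not tell whether the genes are under Polycomb there. The H3K27ac antibody was also another one in NIH3T3 cells than in limb buds.

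The H3K4me2 peaks at the starts were richer in CpG dinucleotides than most of their lists. The observed to expected ratio of CpG dinucleotides was 0.773 and 0.860 in the WT and Shh-/- H3K4me2 peaks over the Isl1 start, whose lists had medians of 0.537 and 0.524. At Pitx1 it was 0.742 in the best ranked WT and 0.810 in the Shh-/- H3K4me2 peak, and 1.27 in the 150 bp peak over the start, a value reached by 0.208% of the WT list. The Pitx1 H3K27me3 peak held 546 CpG dinucleotides and had a ratio of 0.495. The 22 at Isl1 had a median of 0.314, where the whole H3K27me3 list had 0.231 and its 2455 peaks of at least 1 kb had 0.537.

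Exact matches of short motifs were counted on either strand in the members beside all peaks of each list. TAATCC, the core that bicoid-type factors such as Pitx1 bind, was in the Isl1 promoter printed above, in lower case there, and 6.25% of promoter entries of that length hold it. It was in 2 of 3 H3K4me2 peaks at Isl1 in each genotype, where 14.3% of WT and 12.5% of Shh-/- peaks held it, and in none of the H3K4me2 peaks at Pitx1. The Isl1 peaks with it overlapped between the genotypes, and those over the start contain the promoter match, so these are not separate counts. TAATTA, a core bound by many homeodomain factors, was in 0 of the 10 H3K4me2 peaks, where 8.94% of WT and 8.21% of Shh-/- peaks held it. Of the 22 H3K27me3 peaks at Isl1, 6 held TAATCC and 5 held TAATTA, where 10.7% and 10.4% of that list did. The single Pitx1 H3K27me3 peak held both, as wide peaks often do, with 42.8% and 31.0% for peaks of at least 1 kb. GACCACCCA, the sequence bound by the GLI factors of the Hedgehog pathway, was in 0 of the 37 peaks, where 0.264% to 0.726% of the 7 lists held it. Longer peaks hold more matches, and the counts were not matched for width.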

How the data were processed

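The authors aligned reads to mm10, with Bowtie2 2.2.5 named in the submitters' processing notes, and called peaks against input with CisGenome, entering both replicates of a condition together. The deposited lists give for each peak a rank, its position and 4 measures made by the authors: an FDR, which is a q-value, a score of ChIP against input that sets the rank, the highest log2 ratio of ChIP to input, and −log10 of the smallest Poisson p-value, the last of which is used for no result here. The highest FDR ran from 0.000805 in the NIH3T3 purmorphamine list to 0.255 in the H3K27me3 list, so the lists share no common FDR limit.

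Groups came from the sample labels. Positions are printed as deposited. All peak starts are multiples of 50, so they may count from 0 and be 1 base off, and the peaks on the 21 main chromosomes, the only ones checked, lie within the GRCm38 lengths. Peaks of the assembled autosomes and sex chromosomes were set against the basic GENCODE annotation (version M21) with Python 3.11.15, pandas 2.3.3 and numpy 2.4.6. Peaks were called shared at an overlap of at least 1 bp. The overlap functions were tested on simulated data and against bedtools 2.31.1. No test between lists was possible, and shares over all peaks, genes or starts are given as backgrounds. Covered lengths, widths and counts carry no counting interval, since they describe 1 list each.

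The members, gene lists and motifs were chosen with earlier results of these data known. Peaks named are, for each gene, those over a start, the best ranked and the widest of each list, all H3K27me3 peaks of at least 1 kb, unshared peaks in the better ranked 50% of a list and, added beyond that rule, the remaining Pitx1 and H3K4me2 peaks and the H3K27me3 peak at the edge of the Isl1 start gap. Of the gene lists, Tbx4, Tbx5, Isl2 and Hoxc10 were to be given with values, 1 other gene is not reported here, and further values were chosen after they were seen. The H3K27me3 antibody in the labels differs from that in the study's methods.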

Additional observations from a re-analysis of the deposited data

How the results depend on the processing

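No paired analysis was possible because each list was called on both replicates together, which also left no replicate to leave out. Of 299 alternative values, 265 were within 1.5 times the reported one and 34 were not. Many of them were counts of 0 that stayed at 0, or counts for the gene lists. This share is therefore no measure of how firm the values at the members are. With 20 kb on either side Pitx1 had 0 H3K27ac peaks in WT and Shh-/- limb, also with 0 kb. With 100 kb the counts at Pitx1 were 7 in WT and 8 in Shh-/- limb for H3K27ac, 6 and 2 for H3K4me2 and 1 in each NIH3T3 list, and at Isl1 H3K27ac peaks were 3 in WT limb, 2 in Shh-/- limb and 1 in each NIH3T3 list. With 0 kb Isl1 had 1 H3K4me2 peak in each genotype and 9 H3K27me3 peaks. In the better ranked 50% of the lists Pitx1 had 1 Shh-/- H3K27ac and 1 WT H3K4me2 peak. Merging peaks within 1 kb gave 1 WT H3K27ac and 1 WT H3K4me2 peak at Pitx1 and 3 H3K27me3 domains at Isl1.

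When peaks no more than 500 bp apart also counted as overlapping, Pitx1 had 0 unshared WT H3K27ac and 0 unshared WT H3K4me2 peaks, and 8 Isl1 H3K27me3 peaks counted as overlapping Shh-/- H3K4me2. With overlap of at least 50% of the peak, 1 Shh-/- H3K4me2 peak at Pitx1 was unshared and 0 Pitx1 H3K27me3 peaks overlapped Shh-/- H3K4me2. At an FDR under 0.05, unshared peaks were 1 in WT H3K4me2 at Pitx1 and 0 in Shh-/- H3K4me2 at Isl1. With 20 kb on either side, 0.770% of genes had at least as much H3K27me3 length as Pitx1 and 0.748% as Isl1. With 500 bp on either side of a start, 0 of the 5 other hindlimb genes had limb H3K27ac, in Shh-/- limb as in either genotype, and 1 motor neuron marker had WT H3K4me2. Peaks are limited by depth that the lists do not give, so an absent peak is a site not detected.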

Other observations

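Within 500 kb on either side of its start, Pitx1 had 60 H3K27ac peaks for WT and 67 for Shh-/- limb, 34 in NIH3T3 cells after DMSO and 37 after purmorphamine. Downstream of the start the total counts were similar, with 31, 29, 29 and 29 peaks, but overlap between these peaks was not counted. Within 100 kb on either side of the start there were 6 in WT and 7 in Shh-/- limb and 0 in each NIH3T3 list. Upstream, 29 and 38 lay in WT and Shh-/- limb and 5 and 8 in NIH3T3 cells after DMSO and purmorphamine. The lists differ in length, antibody and cell number, and the genes to which these peaks belong were not tested.

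Isl1 had fewer H3K27ac peaks than Pitx1 over the same distance, 8 in WT and 4 in Shh-/- limb, 3 after DMSO and 7 after purmorphamine. The counts at other genes over this distance were not computed, so there is no background for either gene. All of the NIH3T3 peaks lay downstream of the gene. Of 38 H3K27me3 peaks over this distance, 22 were those of the Isl1 domain. At Pitx1 there were 15, of which 1 was the domain over the gene.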
